A study of Xenopus tropicalis with 20 samples.

Results

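The genes described here encode enzymes that make foreign and fat-soluble body compounds easier to excrete, measured as liver RNA in the western clawed frog Xenopus tropicalis. They were chosen by gene symbol. The set took in cytochrome P450 genes of the families CYP2, CYP3 and CYP4, the UDP-glucuronosyltransferases (UGT), the sulfotransferases (SULT), and the glutathione transferases, both soluble (GST) and membrane-bound (MGST). A gene also had to average at least 1 FPKM over the libraries and to have an estimate marked sound. FPKM is the number of sequenced fragments per kilobase of transcript, scaled to the mapped fragments of the library. Of the 20372 named genes 66 matched by symbol, and 50 were members. A further 15 lay under the level limit and 1, ugt1a1, was left out by name. The members were 19 CYP2, 2 CYP3, 6 CYP4, 3 UGT, 12 SULT, 4 soluble GST, 1 kappa-class GST (gstk1) and 3 MGST genes. Just inside the limit were ugt3a2 at a mean of 1.55 FPKM and mgst2 at 1.64, and just outside it sult2a1 at 0.988 and ugt2a1 at 0.576.

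Livers came from 20 mature females, 5 per group. F1 mixture and F2 mixture females descended from founders (F0) kept with benzo[a]pyrene and triclosan together at 50 ng/L from tadpole to adulthood, a concentration the labels do not split between the compounds. Benzo[a]pyrene is a polycyclic aromatic hydrocarbon of smoke and soot, and triclosan is an antimicrobial agent. F1 control and F2 control females descended from unexposed founders, and none of the F1 or F2 females was itself exposed. Strain, clutch and parents are not stated in the labels, so p-values measure the spread between these females, some of which may be sisters. According to the series' design text the control reads came from earlier work, so the line and the time of preparation cannot be told apart.

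Detoxification in the liver is usually described as a sequence. P450 enzymes, bound in the endoplasmic reticulum and fed with electrons by a reductase, insert an oxygen atom into a fat-soluble compound. Conjugating enzymes then attach a water-soluble group, glucuronic acid by UGT, sulfate by SULT and glutathione by GST, and transporters export the product. CYP2 and CYP3 enzymes act mostly on drugs, plant compounds and steroids, and CYP4 enzymes mostly on fatty acids. Benzo[a]pyrene is best known as a substrate and inducer of another family, CYP1, and its oxidised products are conjugated by UGT, SULT and GST. The roles given below are those of the human or mouse enzymes of the same name, and the frog copies were not assayed.

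The files hold no read counts. Taken as 2 Poisson SD on each side, the deposited confidence limits correspond to 7896246 to 16704801 fragments per library. The median half-width of those limits ran from 1.45% of the value for the best measured member to 44.2% for the worst. Libraries were scaled by factors of 0.717 to 1.26 before comparison, and levels below are scaled FPKM. Of 16 hepatocyte markers 15 met the limits on level and on sound estimates that a test required, and alb did not. The list had a summed level of 13418 to 34756 in F2 mixture livers and 18140 to 32428 in F2 control livers. The library F2 mixture 2 stood apart in its group. It had the lowest value of its group for 33 of the 50 members, against 29.6% of all tested genes, and a summed member level of 1294, against 2415 to 4548 in the other F2 mixture libraries. It also had the lowest summed hepatocyte level and the highest summed erythrocyte marker level (158838) of its group. F2 control 2 shared part of this. It was lowest of its group for 25 of the 50 members, against 15.0% of all tested genes. Its summed member level of 2123 was the lowest of the F2 control libraries, and its summed erythrocyte marker level of 157342 the highest. The F2 family sums and the counts of members called in comparisons that use F2 mixture 2 are given with and without it. So are those counts between F2 mixture and F2 control livers that changed in the gene lists named below. Family sums without F2 control 2 are not given here. Markers of oocyte and ovary summed to 1.13 to 2.39 in F2 mixture livers and 0.298 to 3.23 in F2 control livers. None of them or of the intestine markers met the limits for a test.

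A few genes carried most of the summed RNA of these enzymes. The microsomal glutathione transferase gene mgst1 alone held 31.5% of the summed scaled FPKM, with a mean of 1039 over the 20 libraries. By group its share was 26.7% in F2 mixture and 16.9% in F2 control livers, and 36.6% in F1 mixture and 39.8% in F1 control livers. It was followed by mgst3 at 397, cyp2b6 at 320, cyp2a6.9 at 264 and sult1c4 at 155. Of the 50 members 8 averaged 100 or more, 20 lay between 10 and 100, and 22 lay under 10. All 3 UGT genes were in the lowest class, led by ugt1a6 at 6.51.

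The summed level of each family was compared between groups as a description, without a test. CYP2 genes summed to 993 ± 447 scaled FPKM in F2 mixture livers and 869 ± 159 in F2 control livers (SD, n = 5 each), with the control values inside the mixture range. The 3 UGT genes summed to 6.93 ± 2.48 in F2 mixture livers, against 13.5 ± 3.73 in F2 control livers. The 4 soluble GST genes summed to 109 ± 15.4 in F2 mixture livers and 162 ± 35.9 in F2 control livers. CYP4 genes summed to 115 ± 39.1 in F2 mixture and 172 ± 20.7 in F2 control livers. These families had lower means in the F2 mixture group, and in each of these 3 families the ranges of the groups overlapped. SULT genes went the other way, at 617 ± 383 in F2 mixture livers and 307 ± 45.7 in F2 control livers, with 1145 in F2 mixture 4 and 202 in F2 mixture 2. MGST genes summed to 1272 ± 556 in F2 mixture and 1037 ± 445 in F2 control livers. Without F2 mixture 2 the F2 mixture sums were 1141 ± 347 for CYP2, 7.99 ± 0.837 for UGT, 114 ± 12.9 for soluble GST, 132 ± 11.4 for CYP4, 721 ± 352 for SULT and 1476 ± 370 for MGST (SD, n = 4). In F1 the CYP2 and UGT sums lay close together, at 879 ± 209 in F1 mixture and 892 ± 192 in F1 control livers for CYP2, and 12.9 ± 4.09 in F1 mixture and 13.4 ± 2.56 in F1 control livers for UGT. The gap was wider beside a wide spread for gstk1, at 90.6 ± 34.8 in F1 mixture and 59.9 ± 29.3 in F1 control livers, and for CYP4, at 182 ± 61.2 in F1 mixture and 219 ± 65.4 in F1 control livers, with overlapping ranges in both.

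**Figure D1:**
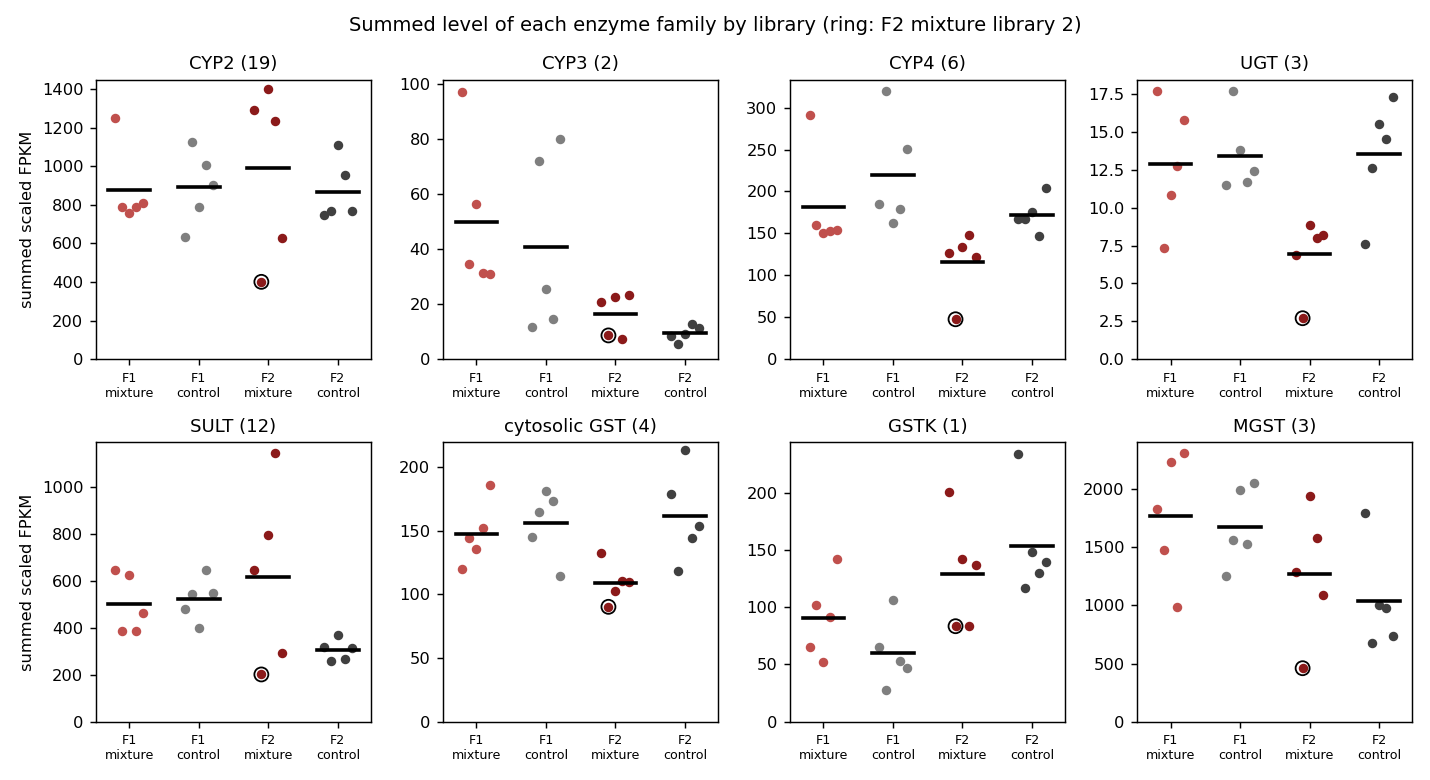
Summed scaled FPKM of each enzyme family (vertical axis, linear from 0) in each of the 20 libraries, by group, with the number of genes in brackets. Points are libraries, bars are group means, and the ring marks F2 mixture 2, which had the lowest CYP4 sum (47.5) and the lowest UGT sum (2.70) of its group.

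The F1 comparison asked whether the daughters of exposed founders differed from control daughters. None of the 50 members passed between F1 mixture and F1 control livers by limma (threshold of 0.05 on the adjusted p), where 0 of all 10228 tested genes passed (0%). At an unadjusted p under 0.05 there were 8 members and 1306 genes in all. The median log2 fold change of the members was 0.07, against -0.02 over all tested genes, with 29 members positive. With libraries weighted by their quality (limma's arrayWeights) 7 members passed, 6 higher and 1 lower, which is 14% of the members, against 1129 genes or 11.04% in all.

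The F1 gaps between means were wide for a few genes, and so was the spread. The largest log2 fold change was that of cyp2a13l (chromosome 5, 148586023 to 148597628), named after a human airway enzyme that activates tobacco nitrosamines. It stood at 1.11, 1.34, 1.62, 2.57 and 0.370 scaled FPKM in F1 mixture livers, against 5.20, 12.3, 0.705, 5.15 and 15.4 in F1 control livers. A single control library, F1 control 3, lay among the mixture values, and the other 4 lay above all of them. The log2 fold change was -1.56 ± 0.46 (SE, adjusted p = 0.210), and without F1 control 3 it was -2.06 with adjusted p = 0.0243. In the authors' deposited table cyp2a13l was significant in F1 (q = 0.00495).

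Other P450 genes had higher means in F1 mixture livers without passing. cyp2e1.2, a copy of the ethanol-oxidising P450, stood at 3.29 ± 1.60 in F1 mixture livers and 1.25 ± 0.874 in F1 control livers (log2 fold change 0.92 ± 0.26, adjusted p = 0.199). cyp2f1, which in human lung activates naphthalene, averaged 74.5 ± 14.1 in F1 mixture and 41.2 ± 13.9 in F1 control livers (0.88 ± 0.32, adjusted p = 0.32). Its position overlaps an unnamed gene over 27355 bases, so its reads may be shared. The sulfotransferase gene sult6b1.4 had the smallest adjusted p of the members. It stood between 9.17 and 14.2 in F1 mixture livers and between 5.69 and 6.99 in F1 control livers (0.72 ± 0.16, adjusted p = 0.114). It was the 1 member whose F1 groups did not overlap, against 1.59% of all tested genes (0.684% higher and 0.909% lower).

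The next question was whether the granddaughters of exposed founders differed. Of the 50 members 12 passed between F2 mixture and F2 control livers, 1 higher and 11 lower, which is 24% of the members. Of all tested genes 25.7% passed, 11.3% higher and 14.5% lower, so the share of members called was near the background, and 11 of the 12 calls were downward. The median log2 fold change was -0.36 over members and -0.04 over all tested genes, and 16 members were positive. Groups without overlap were found for 6 members (12%), all lower in F2 mixture livers, against 15.4% of all tested genes (7.97% higher and 7.38% lower). The 38 members that did not pass had log2 fold changes between -0.89 and 1.49, 15 of them positive.

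**Figure D2:**
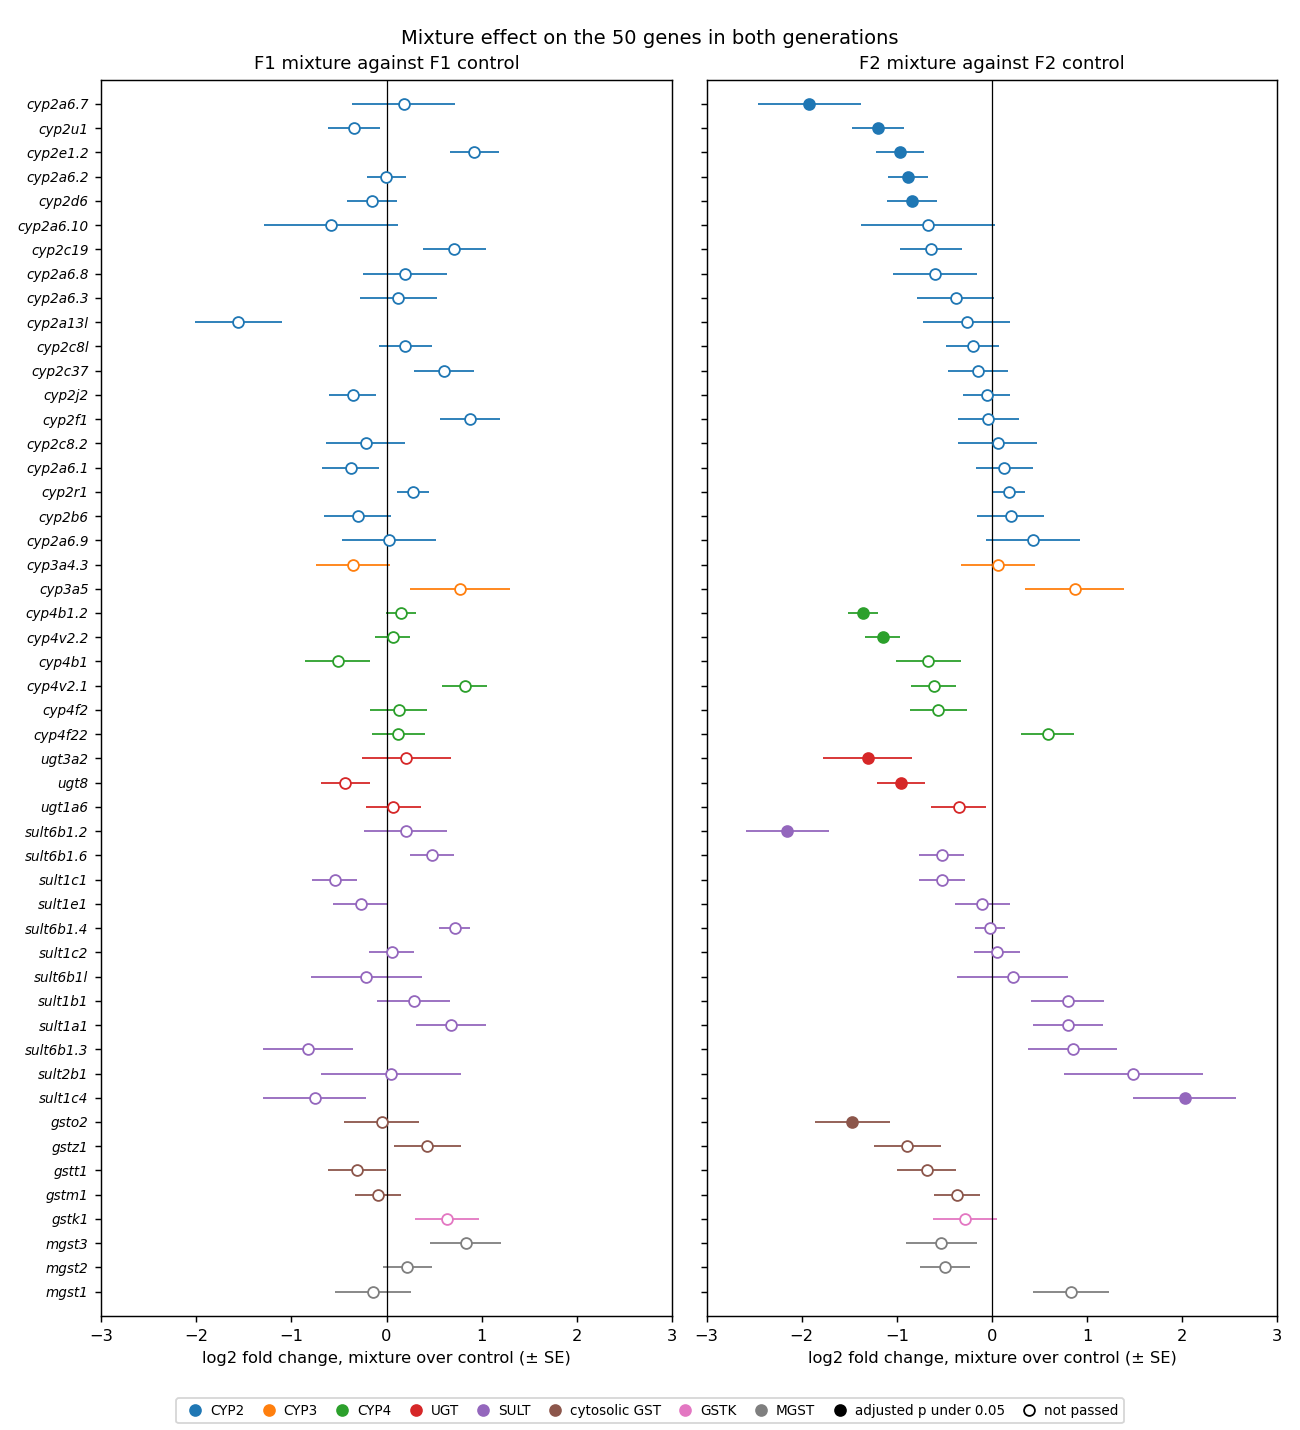
Log2 fold change ± SE (horizontal axis) of each of the 50 genes (rows, by family) in F1 mixture against F1 control (left) and F2 mixture against F2 control (right). Filled points passed the test at an adjusted p under 0.05, which were 0 in F1 and 12 in F2, with sult1c4 as the called gene to the right of 0.

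Among the CYP2 genes 5 of 19 fell in F2 mixture livers and 0 rose. The cyp2a6 copies are relatives of the human enzyme that oxidises nicotine and coumarin, and 2 of the 7 members fell. cyp2a6.7 (chromosome 8, 78816991 to 78831564) stood at 17.5, 8.51, 11.6, 3.91 and 6.33 scaled FPKM in F2 mixture livers 1 to 5, against 45.4, 23.5, 24.3, 29.0 and 71.0 in F2 control livers 1 to 5. Every mixture value lay below every control value, with a log2 fold change of -1.92 ± 0.54 (adjusted p = 0.0142). cyp2a6.2 stood at 3.83, 2.17, 2.58, 2.60 and 4.57 in F2 mixture livers, against 6.15, 7.05, 8.25, 7.47 and 4.24 in F2 control livers. Only mixture library 5 and control library 5 overlapped, and the log2 fold change was -0.88 ± 0.21 (adjusted p = 0.00449). The way reads were split among similar copies is not stated, so levels of single copies are uncertain.

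cyp2u1, which hydroxylates long-chain fatty acids, fell by 1.20 ± 0.27 on the log2 scale (adjusted p = 0.00385). Its F2 mixture values were 10.03, 10.1, 12.04, 9.85 and 27.1 scaled FPKM, against 18.6, 36.0, 44.3, 23.9 and 36.7 in F2 control livers. The 4 lower mixture values were below all controls, and mixture library 5 lay among the controls. cyp2e1.2 (chromosome 5, 148706326 to 148730470) was low throughout, at 0.185, 0.319, 1.01, 0.281 and 0.441 in F2 mixture livers, against 1.60, 1.36, 2.11, 2.02 and 1.88 in F2 control livers. The groups did not overlap (-0.97 ± 0.26, adjusted p = 0.00982), and the added pseudocount of 1 makes this change smaller than that of the levels themselves. The position of cyp2e1.2 overlaps that of cyp2c19 over 308 bases, so its reads may be shared. Their means over all libraries were 1.76 and 60.4 FPKM. cyp2d6, whose human form oxidises codeine and many other drugs, stood at 3.27, 2.37, 2.48, 1.22 and 3.04 in F2 mixture livers, against 2.38, 4.01, 6.64, 4.85 and 9.97 in F2 control livers. It fell (-0.84 ± 0.26, adjusted p = 0.0232), but its groups overlapped and the call was weak. In a fit of the F2 libraries alone, with same-numbered libraries treated as pairs, its adjusted p was 0.0504. With the F2 libraries alone and no pairs it was 0.0587. Without F2 mixture 4, F2 control 3 or F2 control 5 it was 0.0796, 0.0587 and 0.0763.

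The most abundant P450 genes did not pass. cyp2b6, relative of the human enzyme that oxidises bupropion and a classic target of the receptor CAR, averaged 333 ± 152 in F2 mixture livers and 272 ± 85.7 in F2 control livers (0.20 ± 0.35, adjusted p = 0.710). cyp2a6.9 averaged 399 ± 271 in F2 mixture and 250 ± 122 in F2 control livers. cyp3a5, of the family that oxidises the widest range of drugs in human liver, stood at 12.4, 6.05, 18.6, 6.33 and 19.1 in F2 mixture livers, against 6.08, 3.77, 7.18, 6.03 and 5.91 in F2 control livers. Its mixture values reached higher but overlapped the controls (0.87 ± 0.52, adjusted p = 0.231). With the F2 libraries alone and same-numbered libraries treated as pairs, the adjusted p of cyp3a5 was 0.0289. It was not called in these libraries without the pairs. The authors' deposited table marked it as significant.

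Of the 6 CYP4 genes, which hydroxylate fatty acids, 2 fell and 0 rose. cyp4b1.2 (chromosome 4, 93798736 to 93811048) gave the smallest adjusted p of all members. It stood at 1.43, 1.70, 3.33, 2.93 and 2.94 scaled FPKM in F2 mixture livers, against 6.71, 7.06, 8.72, 7.19 and 8.78 in F2 control livers. The highest mixture value was below the lowest control value (-1.36 ± 0.16, adjusted p = 1.40e-05). Its neighbour cyp4b1, which is far more abundant, averaged 82.3 ± 33.4 in F2 mixture and 119 ± 9.64 in F2 control livers and did not pass (-0.67 ± 0.34, adjusted p = 0.156). cyp4v2.2 (chromosome 1, 44062556 to 44092287), named after a fatty acid hydroxylase mutated in a human retinal dystrophy, stood at 8.94, 8.07, 9.91, 6.59 and 10.4 in F2 mixture livers, against 17.4, 16.9, 19.7, 20.01 and 30.9 in F2 control livers. Again the groups did not overlap (-1.15 ± 0.18, adjusted p = 0.000285). Its neighbour cyp4v2.1 had -0.61 ± 0.24 (adjusted p = 0.0639).

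Of the 3 UGT genes 2 were called lower, although neither is a main drug conjugating enzyme. ugt8, whose human enzyme adds galactose to ceramide for myelin lipids, stood at 2.33, 1.39, 2.19, 3.18 and 2.09 in F2 mixture livers, against 3.86, 3.75, 4.97, 6.77 and 7.38 in F2 control livers. These groups did not overlap (-0.96 ± 0.26, adjusted p = 0.0102). ugt3a2, whose human enzyme transfers glucose or xylose, was listed at 0 in 7 libraries. Its F2 mixture values were 1.49, 0, 0, 0 and 1.62, against 1.26, 4.04, 3.57, 3.89 and 1.38 in F2 control livers. It lies almost wholly within another gene, LOC100488176, with an overlap of 17177 bases, and zeros may be failed estimates, so no fold is given. Its adjusted p was 0.0452, and 0.0603 with same-numbered libraries as pairs. Without F2 mixture 2, 3 or 4 it was 0.0811, 0.104 and 0.113. Without F2 control 2, 3 or 4 it was 0.0980, 0.0889 and 0.0920. The call also ended with a pseudocount of 0.1 (0.0650), without a filter on low levels (0.0729) and without scaling (0.0518). It ended too with quantile normalization (0.0552) and with a correction for gene length (0.0524), so it was weak. The phenol-conjugating ugt1a6 averaged 4.08 ± 2.02 in F2 mixture and 5.37 ± 2.44 in F2 control livers (adjusted p = 0.397).

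Glutathione transferase genes gave 1 call. gsto2, an omega-class enzyme that reduces dehydroascorbate, stood at 2.35, 6.91, 0.564, 0.337 and 3.87 in F2 mixture livers, against 7.97, 12.6, 7.70, 8.25 and 3.41 in F2 control livers. Mixture libraries 2 and 5 exceeded the lowest control, and the others were below all controls (-1.47 ± 0.39, adjusted p = 0.0105). gstm1, a mu-class enzyme that conjugates epoxides of aromatic hydrocarbons, averaged 77.0 ± 21.7 in F2 mixture and 99.0 ± 22.9 in F2 control livers (-0.37 ± 0.24, adjusted p = 0.274). The kappa-class gstk1 of mitochondria and peroxisomes averaged 129 ± 48.6 in F2 mixture and 153 ± 46.2 in F2 control livers (adjusted p = 0.566). mgst1, the most abundant member by the mean over all libraries, stood at 732, 303, 1361, 1239 and 773 in F2 mixture livers, against 680, 252, 631, 540 and 275 in F2 control livers. Mixture library 2 lay among the controls and the other 4 lay above all of them. The log2 fold change of mgst1 was 0.83 ± 0.40 (adjusted p = 0.130), with 0.0444 in the paired fit and 0.0190 without F2 mixture 2. In F2 control livers mgst3 averaged 559 ± 309.9 and mgst1 476 ± 200.4 (SD, n = 5).

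Sulfotransferase genes held the called extremes in both directions. sult6b1.2 (chromosome 5, 49913796 to 49933643), of a branch little studied in human, stood at 9.20, 4.53, 9.74, 14.2 and 7.12 in F2 mixture livers, against 53.3, 76.1, 45.9, 16.9 and 35.6 in F2 control livers. The groups did not overlap, and the log2 fold change of -2.15 ± 0.44 was the lowest of the members (adjusted p = 0.00173). sult1c4 (chromosome 8, 9857006 to 9882448), named after a human phenol sulfotransferase of fetal tissues, stood at 255, 61.5, 401, 708 and 76.6 in F2 mixture livers, against 43.8, 27.6, 80.1, 63.8 and 46.1 in F2 control livers. Libraries 1, 3 and 4 of the mixture group lay above every control, and libraries 2 and 5 lay within the control range. The log2 fold change was 2.03 ± 0.54 (adjusted p = 0.0104). Both calls held when any single library was left out.

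**Figure D3:**
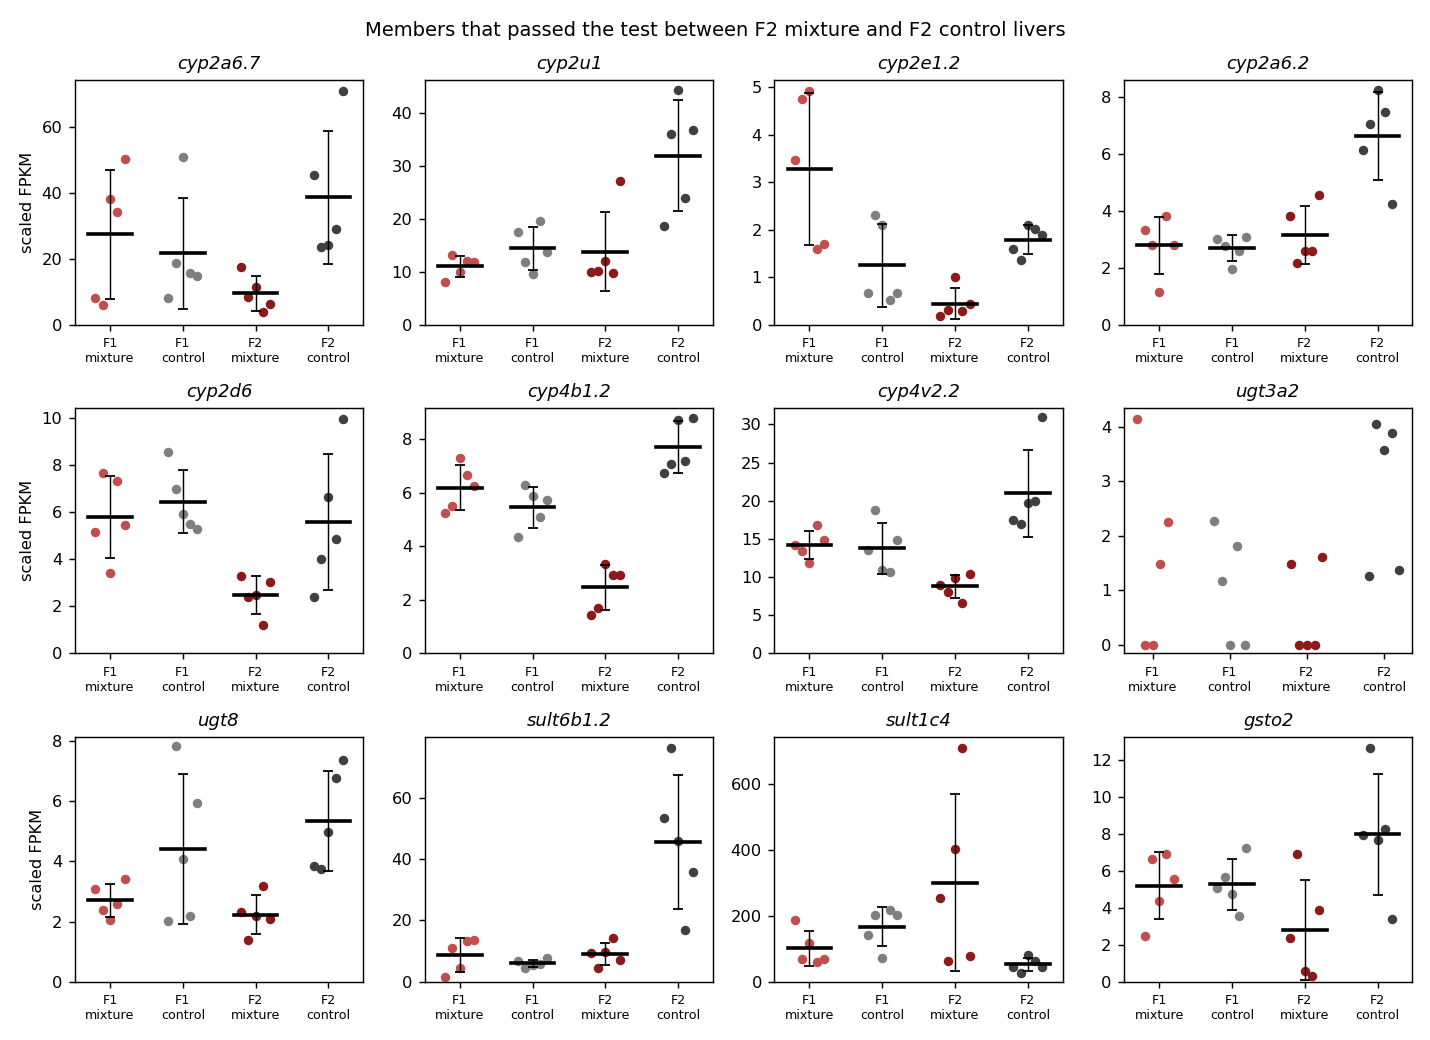
Scaled FPKM (vertical axis, linear) of the 12 genes called in F2, in all 4 groups. Points are libraries, bars are means ± SD (none for ugt3a2, listed at 0 in 7 libraries), and in the F2 pair 6 of the 11 lower genes show no overlap while sult1c4 is spread from 61.5 to 708 in F2 mixture livers.

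Among the members the balance between higher and lower calls changed when F2 mixture 2 was left out. Without it 18 members were called in F2, 7 higher and 11 lower, with 11 of the 12 calls shared and that of ugt3a2 ended. These 18 are 36% of the members, against 3299 genes or 32.3% of all tested. The split of the 3299 by direction is not given here, so the 7 higher calls have no background beside them. The log2 fold changes of the 12 called genes without it were 0.891 to 1.23 times those with it, 2.45 for sult1c4 and -1.81 for gsto2. The genes gained, named here after their values were seen, were mgst1 (1.17), cyp4f22 (0.86), sult1a1 (1.05), sult1b1 (1.18), sult2b1 (1.99) and sult6b1.3 (1.22) among the higher, and gstt1 (-0.84) among the lower. When F2 control 2 was left out instead, 11 members (22%) were called, 1 higher and 10 lower. Of all tested genes 2100 or 20.5% were then called. With the mean log2 erythrocyte marker level as a covariate 14 were called, including all 12. These 14 are 28% of the members, against 2602 genes or 25.4% of all tested. Beside the F2 calls, hepatocyte markers had 0 of 15 higher and 4 lower, and erythrocyte markers 0 of 14 higher and 1 lower. In the same comparison 11.3% of all tested genes passed as higher and 14.5% as lower. With all libraries the median F2 log2 fold change was -0.73 over hepatocyte markers and -0.28 over erythrocyte markers, beside -0.36 over members. Macrophage markers had 3 of 9 lower. Endothelial markers had 1 of 6 higher and 2 lower, and stellate cell and fibroblast markers had 2 of 6 higher and 2 lower. Without F2 mixture 2 hepatocyte markers had 2 higher and 3 lower, erythrocyte markers 0 higher and 2 lower, macrophage markers 4 lower, and stellate cell and fibroblast markers 3 higher and 2 lower. Of 7 pancreas markers only 2, cel and amy2a, could be tested, and both were higher. Another 3, cpb1, ctrb1 and pnlip, averaged under 0.1 scaled FPKM. The summed level of the list was 41.9 to 307 in F2 mixture livers and 16.3 to 40.1 in F2 control livers. The part of these cell types in the enzyme results was not tested, and fewer cells of a type cannot be told apart from less RNA per cell in whole liver.

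The log2 fold change of mixture over control livers differed between generations for 10 members. It was higher in F2 than in F1 for 1 and lower for 9. These 10 are 20% of the members, with 20.1% among all tested genes (9.52% higher and 10.5% lower). The contrast, called the difference of effects below, is the F2 log2 fold change minus the F1 one. Line cannot be told apart from time of preparation in it. Its median was -0.41 over members and -0.03 over all tested genes. Over hepatocyte markers its median was -0.88, with 0 of 15 higher and 6 lower. Over erythrocyte markers it was -0.72, with 0 of 14 higher and 1 lower. The part of these cell types in the contrast was not tested. With arrayWeights 17 members (34%) were called, against 3864 genes or 37.8% of all tested. When F2 mixture 2 was left out, 10 members (20%) were called, 2 higher and 8 lower, against 2783 genes or 27.2% of all tested. The calls of cyp2a6.2 and sult6b1.6 then ended, and sult6b1.3 and gsto2 were gained. cyp4b1.2 changed by -1.36 in F2 and 0.15 in F1, a difference of -1.51 ± 0.23 (adjusted p = 0.000410). cyp2e1.2 had opposite signs, -0.97 in F2 and 0.92 in F1, with a difference of -1.89 ± 0.36 (adjusted p = 0.00245). cyp4v2.1 did too, with -0.61 in F2 and 0.82 in F1 and a difference of -1.43 ± 0.34 (adjusted p = 0.00707). sult1c4 was called in the other direction, with 2.03 in F2 and -0.76 in F1 and a difference of 2.78 ± 0.77 (adjusted p = 0.0169).

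The other members called for this difference were cyp4v2.2 (-1.21 ± 0.26), sult6b1.2 (-2.36 ± 0.62), cyp2c19 (-1.35 ± 0.46), sult6b1.6 (-1.01 ± 0.33), cyp2a6.2 (-0.88 ± 0.29) and sult6b1.4 (-0.74 ± 0.23). cyp2c19, named after a human enzyme that oxidises omeprazole, averaged 48.3 ± 24.1 in F2 mixture and 68.2 ± 12.7 in F2 control livers, and 76.0 ± 10.03 in F1 mixture and 48.5 ± 18.3 in F1 control livers. Its 2 single-generation changes, -0.64 and 0.71, did not pass. The adjusted p of cyp2c19, cyp2a6.2, sult6b1.6 and sult6b1.4 lay between 0.0291 and 0.0448. All 4 calls ended without F1 mixture 9 or F1 mixture 13, where 6 members (12%) remained called. Of all tested genes 13.5% were called without F1 mixture 9 and 14.8% without F1 mixture 13. Each of the 4 calls also ended in other fits. Without F2 mixture 2 the adjusted p was 0.0534 for cyp2a6.2 and 0.0523 for sult6b1.6. Without F1 control 4 it was 0.0808 for cyp2c19, and with the erythrocyte covariate 0.0525 for sult6b1.4. The difference in cyp2a6.7 was larger than most, at -2.10 ± 0.77, and did not pass (adjusted p = 0.0586).

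**Figure D4:**
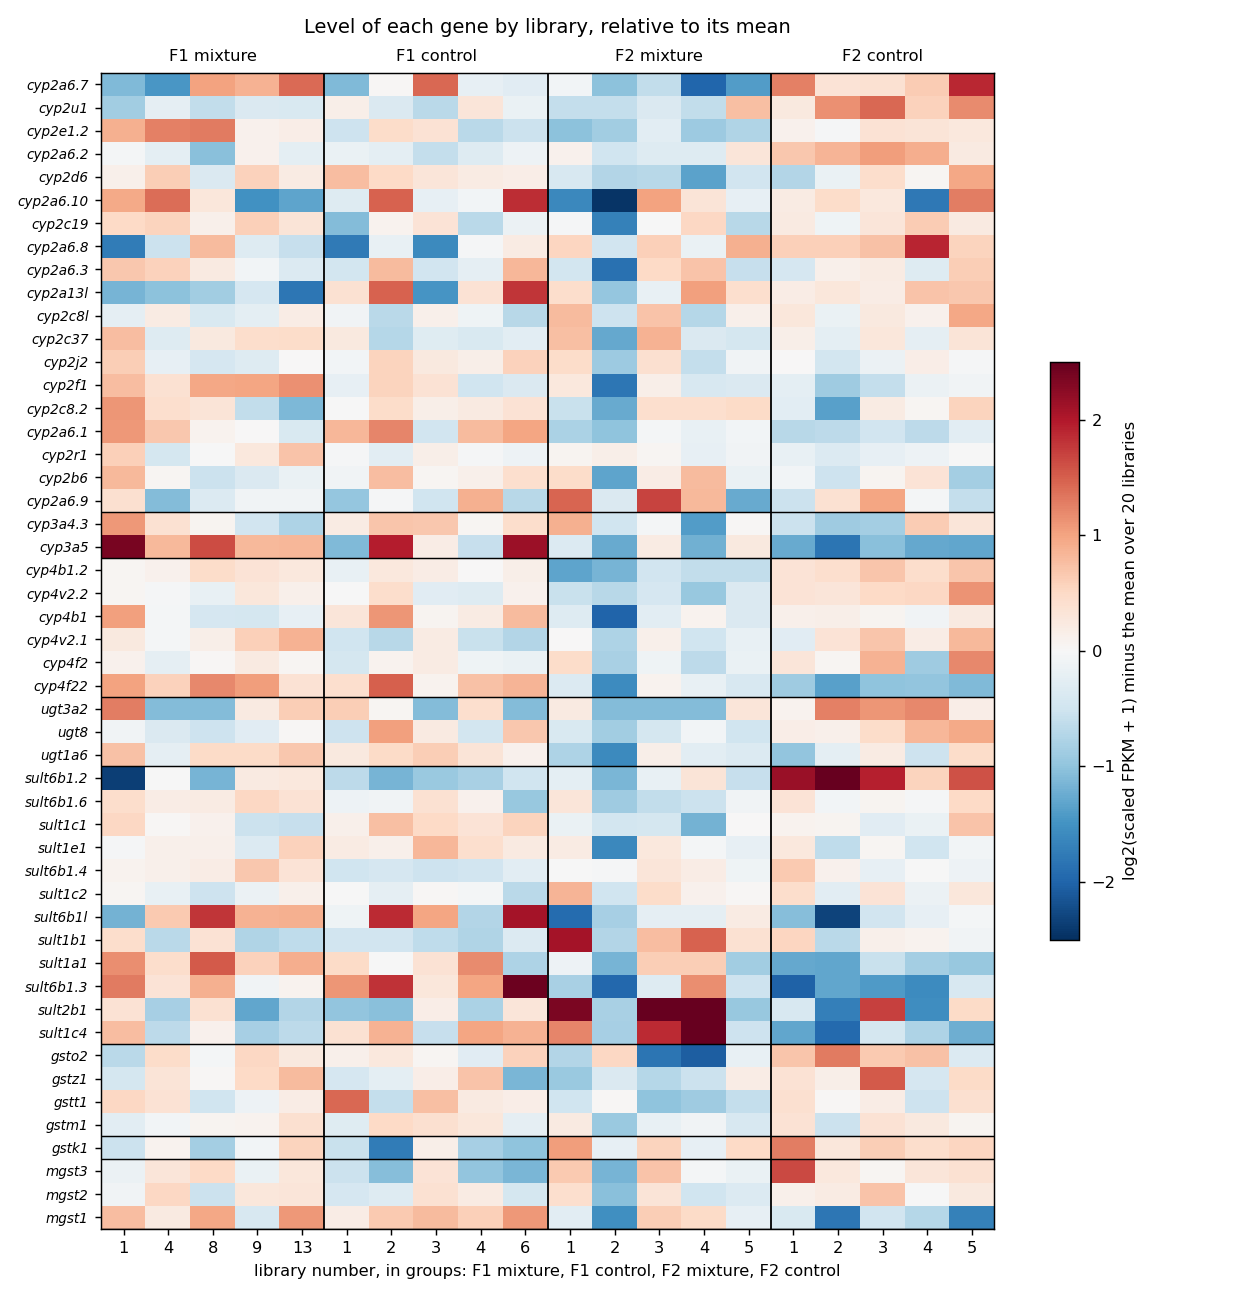
Level of each of the 50 genes (rows, by family) in each library (columns, by group), as log2(scaled FPKM + 1) minus the gene's mean over the 20 libraries. Library F2 mixture 2 is lowest of its group for 33 genes, cyp4f22 is low in the F2 control libraries, and sult6b1.2 is high in the F2 control libraries.

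The generations were also compared within each line, which shares libraries with the comparisons above. Between F2 control and F1 control livers 18 members passed, 10 higher and 8 lower in F2 control livers. This is 36% of the members, against 55.9% of all tested genes (27.4% higher and 28.5% lower). Without scaling of the libraries 18 were called (36%), 7 higher and 11 lower, against 53.4% of all tested genes. With the erythrocyte covariate 15 were called (30%), 11 higher and 4 lower, against 39.5% of all tested genes. In the same comparison 6 of 14 erythrocyte markers were higher and 0 lower, and 6 of 15 hepatocyte markers higher and 1 lower. Both tested pancreas markers, of 7 listed, were lower. The part of these markers in the result was not tested. The groups did not overlap for 9 members (18%), 6 higher and 3 lower, against 41.7% of all tested genes (20.3% higher and 21.5% lower). Between F2 mixture and F1 mixture livers 10 members passed and all were lower in F2 mixture livers, 20% of the members against 14.2% of all tested genes (6.06% higher and 8.11% lower). The groups did not overlap for 7 of the 50 members (14%), all lower in F2 mixture livers, against 8.61% of all tested genes (3.18% higher and 5.44% lower). With these 2 groups fitted alone 5 members (10%) were called, against 4.98% of all tested genes. Without a filter on low levels 6 members (12%) were called, against 7.22% of the genes then tested. With arrayWeights 6 were called, 1 higher and 5 lower, against 7.67%. The direction was thus not the same in every fit. When F2 mixture 2 was left out, 9 members were called, 2 higher (cyp2a13l and sult1b1) and 7 lower. With the erythrocyte covariate 11 were called, 2 higher (sult1b1 and sult1c4) and 9 lower. The shares of all tested genes in these last fits are not given here. F1 and F2 animals of one line need not have been prepared together, and generation cannot be told apart from time of preparation.

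The F2 calls were set beside the F1 levels. Of the 11 genes called lower in F2 mixture livers, 9 (81.8%) had an F2 control mean above both F1 means, against 92.2% of the 1479 genes called lower in all. For 8 of the 11 (72.7%) the F2 mixture mean lay below both F1 means, against 36.2% of the 1479. Both counts include ugt3a2, whose zeros may be failed estimates, and the F2 mixture means include F2 mixture 2. The shares without that gene or that library are not given here. A call chosen for a low mixture level beside its control favours both patterns. sult6b1.2 averaged 45.6 ± 21.9 in F2 control livers, against 6.01 ± 1.22 in F1 control livers (2.60 ± 0.44, adjusted p = 7.07e-05). Its F2 mixture mean of 8.95 ± 3.56 lay close to the F1 mixture mean of 8.73 ± 5.50 (0.24 ± 0.44, adjusted p = 0.744). cyp2u1 also had its highest mean in F2 control livers, with 31.9 ± 10.4 in F2 control and 14.5 ± 4.09 in F1 control livers (1.07 ± 0.27, adjusted p = 0.00283), and 13.8 ± 7.48 in F2 mixture and 11.01 ± 2.0 in F1 mixture livers. For cyp2a6.2 the F2 control mean was 6.63 ± 1.54, with 2.69 ± 0.456 in F1 control livers.

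cyp4b1.2 differed in the mixture line as well. It averaged 2.47 ± 0.843 in F2 mixture and 6.18 ± 0.841 in F1 mixture livers (-1.08 ± 0.16, adjusted p = 0.00111), beside 7.69 ± 0.982 in F2 control and 5.46 ± 0.765 in F1 control livers (0.43 ± 0.16, adjusted p = 0.0284). Without scaling of the libraries the control difference was 0.21 (adjusted p = 0.344). cyp2e1.2 was lower in F2 mixture than in F1 mixture livers (-1.50 ± 0.26, adjusted p = 0.00204), with no call in the control line (0.39 ± 0.26, adjusted p = 0.207). For sult1c4 the F2 control mean of 52.3 ± 20.1 lay below the F1 control mean of 167 ± 59.8 (-1.64 ± 0.54, adjusted p = 0.0148). With the erythrocyte covariate this control difference was -0.72 (adjusted p = 0.293).

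In a few genes both lines were lower in F2. cyp3a5 averaged 12.5 ± 6.34 in F2 mixture and 45.2 ± 25.6 in F1 mixture livers (-1.77 ± 0.52, adjusted p = 0.0305), and 5.79 ± 1.24 in F2 control and 34.9 ± 31.9 in F1 control livers (-1.86 ± 0.52, adjusted p = 0.00516). Both calls were fragile, with adjusted p = 0.128 for the control line with the erythrocyte covariate and 0.0882 for the mixture line without F1 mixture 1. cyp4f22, whose human enzyme makes skin barrier lipids, averaged 11.2 ± 4.23 in F2 mixture and 28.1 ± 6.75 in F1 mixture livers (-1.32 ± 0.28, adjusted p = 0.00566). In the control line it averaged 6.63 ± 0.907 in F2 and 26.5 ± 10.6 in F1 livers (-1.78 ± 0.28, adjusted p = 3.62e-05). mgst1 averaged 476 ± 200 in F2 control and 1434 ± 320 in F1 control livers (-1.68 ± 0.40, adjusted p = 0.00151), and its mixture-line change of -0.71 ± 0.40 did not pass (adjusted p = 0.232).

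Gene copies that lie side by side could differ in direction or in passing the test. With neighbours defined as matching genes of the same family at most 200 kb apart, a distance chosen after the values were seen, 29 members lay in 10 arrays of 37 genes. Coordinates are those of the deposited tables. No source used here names their genome build, and 99.0% of named genes had the coordinates of the assembly UCB_Xtro_10.0. The sult6b1 array on chromosome 5 (49698257 to 49933643) holds 5 genes, 4 of them members. Its last pair, sult6b1.3 and sult6b1.2, differed between generations in opposite directions in the control line, by -2.67 ± 0.47 and 2.60 ± 0.44 (adjusted p = 0.000114 and 7.07e-05). sult6b1.3 averaged 11.3 ± 5.69 in F2 control and 82.2 ± 48.8 in F1 control livers, with no overlap. Between F2 mixture and F2 control livers its change was 0.85 ± 0.47 (adjusted p = 0.194), beside -2.15 for sult6b1.2.

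The cyp2a6 array on chromosome 8 (78751180 to 78987462) holds 10 genes, 7 of them members, and 2 fell in F2 mixture livers. The copies differed widely in level, with cyp2a6.9 at a mean of 264 over all libraries, cyp2a6.7 at 24.3 and cyp2a6.2 at 3.82. In the CYP2 array on chromosome 5 (148481181 to 148772810) 1 of 5 members fell, cyp2e1.2, next to cyp2c19 at -0.64 and cyp2b6 at 0.20. The 4 members of the sult1 array on chromosome 9 (2152810 to 2366157) gave 0 calls in F2, with values between -0.53 and 0.80.

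**Figure D5:**
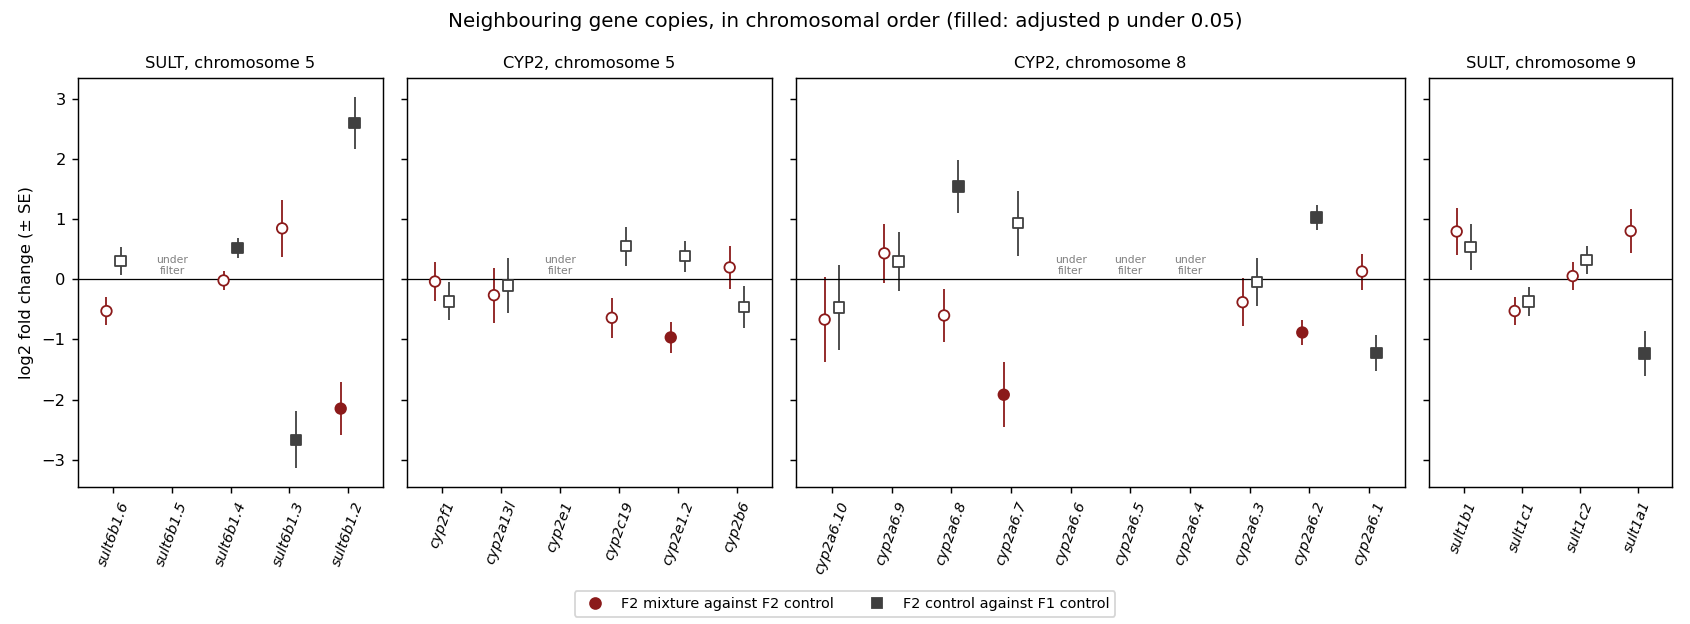
Log2 fold change ± SE (vertical axis) of the genes in the 4 arrays with at least 4 members, in chromosomal order (horizontal axis, not to scale), for F2 mixture against F2 control (circles) and F2 control against F1 control (squares). Filled symbols passed the test, genes under the level limit are marked, and sult6b1.2 and its neighbour sult6b1.3 lie on opposite sides of 0 in each comparison.

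Genes that work with these enzymes were followed by lists, and in F1 none of their tested members passed. Of all tested genes 25.7% passed between F2 mixture and F2 control livers, 11.3% higher and 14.5% lower. The F2 counts of each list stand beside these shares, and no list was tested as a set. Of 22 tested sensors and regulators of detoxification 2 rose and 5 fell in F2 mixture livers. ahr, the receptor that binds benzo[a]pyrene, had -0.73 ± 0.17 (adjusted p = 0.00370), and rxra, the partner of PXR and CAR, had 0.69 ± 0.19 (adjusted p = 0.0104). nr1i2, the receptor PXR that induces CYP3A genes, averaged 0.917 ± 0.581 in F2 mixture and 0.488 ± 0.104 in F2 control livers (0.31 ± 0.20, adjusted p = 0.254). nr1i3, the receptor CAR, stood at 85.0, 14.3, 85.9, 40.1 and 6.08 in F2 mixture livers, against 30.4, 11.6, 41.0, 4.78 and 10.4 in F2 control livers, with wide overlap (0.98 ± 0.63, adjusted p = 0.259). The authors' deposited table marked nr1i3 as significant and higher in F2 mixture livers (Cuffdiff, log2 fold change 1.23, q = 0.0287). hnf4a, a hepatocyte transcription factor that drives many P450 genes, fell (-0.74 ± 0.20, adjusted p = 0.0101). nfe2l2, the factor NRF2 of the oxidative stress response, fell as well (-0.54 ± 0.16, adjusted p = 0.0197).

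Of 11 tested electron donors and heme genes of the P450 system 0 rose and 4 fell. They were fdx1, the ferredoxin of mitochondrial P450 (-1.17 ± 0.22), pgrmc1, a heme-binding P450 partner (-1.16 ± 0.31), cyb5a, cytochrome b5 (-1.02 ± 0.29), and hmox1, which breaks down heme (-0.97 ± 0.34). The reductase gene por, the main electron donor, averaged 60.7 ± 35.9 in F2 mixture and 69.0 ± 14.3 in F2 control livers and did not pass (-0.40 ± 0.36, adjusted p = 0.439). Of 23 tested other phase I genes 0 rose and 9 fell, beside 11.3% higher and 14.5% lower among all tested genes. pon2, a lactonase, averaged 21.2 ± 8.22 in F2 mixture and 84.3 ± 32.4 in F2 control livers (-1.94 ± 0.35, adjusted p = 0.000689), and fmo2, a flavin monooxygenase, fell by 1.38 ± 0.30. cyp1a1 (-1.29 ± 0.33) and the retinal dehydrogenase aldh1a1 (-1.46 ± 0.30) were also among them. ugt1a1, the bilirubin-conjugating gene outside the member rule, was lower too (-0.77 ± 0.23, adjusted p = 0.0208).

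Supply, other conjugation and transport were followed beside the same 11.3% higher and 14.5% lower of all tested genes. Of 20 tested cofactor supply genes 0 rose and 4 fell. slc35b3, which carries the sulfate donor into the Golgi, had -0.73 ± 0.13, and bpnt1, which clears the spent sulfate donor, had -0.89 ± 0.16. mat1a, which makes the methyl donor of the liver, had -1.77 ± 0.37, and gclm, of glutathione synthesis, had -1.08 ± 0.25. Of 7 other conjugating genes 1 fell, inmt, an amine methyltransferase (-1.15 ± 0.21). Of 14 tested transporters 3 rose and 2 fell, among them the exporters abcc5 (1.74 ± 0.42, with 2 F1 values missing) and abcg2 (-0.66 ± 0.18). slco1c1, a thyroid hormone importer, rose by 1.72 ± 0.51, and slc47a2, an organic cation exporter, fell by 1.18 ± 0.37. None of the 5 tested deconjugating genes passed in F2. Some counts changed without F2 mixture 2. They were then 2 higher and 6 lower for sensors and regulators, and 0 higher and 8 lower for other phase I genes. For cofactor supply they were 1 higher and 4 lower, and for transporters 4 higher and 2 lower. Of all tested genes 32.3% were called without this library.

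Among the members, 17 were significant in the authors' deposited table between F2 mixture and F2 control livers, 7 higher and 10 lower, and 9 of these were among the 12 called here. Of all 10860 genes it tested in F2 it marked 20.3%, 10.4% higher and 9.88% lower. In F1 it marked 2 members, cyp2a13l and cyp4v2.1, and 2.43% of the 11021 genes it tested, 1.07% higher and 1.36% lower. All members it marked had the same sign in both analyses, and 45 of the 50 shared the sign in each generation. The deposited table did not mark cyp2e1.2, cyp2u1 or ugt3a2 in F2. For ugt3a2 its group means were 6.39 to 29.1 times the means of the library tables, against a median ratio of 1.2 to 1.41 over members.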

How the data were processed

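RNA from 15 mg of liver per female was sequenced as 75 bp reads, per the labels' protocols. The deposited FPKM per gene and library carry confidence limits. The submitters' processing notes name Trimmomatic 0.32.1 (trimming), HISAT2 (alignment), Cufflinks 0.0.7 and Cuffdiff 0.0.7. Per the file headers, the Cuffdiff tables hold the group means, the log2 fold change, the score of the test, and its p-value and q-value. The generation of each table was taken from its name and checked against the libraries, where genes marked significant had the same sign in 100% (F1) and 99.8% (F2).

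Values not marked OK were set to missing, and at least 3 sound values per group were required. Lines without a gene name (70) were left out. FPKM were divided by a median-ratio factor per library (6971 genes), and log2(scaled FPKM + 1) was analysed, which understates the fold changes of low genes. The 10228 genes averaging at least 1 FPKM entered limma 3.58.1 (R 4.3.3), with 4 group means, a variance trend and all 20 libraries. Tests were two-sided with Benjamini-Hochberg adjustment over all tested genes. The model was tested on simulated data.

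In F2, mixture and control libraries of the same number had positively correlated deviations from their group means (0.385, 0.369, 0.154, 0.104 and 0.169 for numbers 1 to 5). Libraries of unlike number reached 0.167 (mixture 3 with control 5), which is above the values of numbers 3 and 4. A shared number therefore stood out clearly only for 1 and 2. A fit with the number as a block is given where it changes a call. It used the F2 libraries alone, so it differs from the reported fit in its libraries as well as in the block. The labels do not say what a number marks.

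Members and gene lists were chosen with earlier results of these data known. Named were members that passed in a mixture comparison or in the difference, the most abundant member of each family, the 3 largest F1 changes and the 3 largest called changes of each generation comparison. Other members were named after their values were seen. Of each list, up to 4 called genes were named, and nr1i2, nr1i3, por, cyp1a1 and ugt1a1 in any case. Alternatives were another pseudocount, filter, scaling, length correction, weights and covariate, each group pair alone, and each library left out in turn.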

Additional observations from a re-analysis of the deposited data

Results flagged for a closer look

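Single libraries stood far from the rest of their group in 10 of 140 groups of 5 libraries examined. Chance gives about 5% for a single group of values. The 140 are not independent, since genes such as cyp4b1 are also part of their family sum, so the count cannot be judged by that rate. The ratio used was the gap to the nearest library over the group's range. The levels are in scaled FPKM. F2 mixture 2 was lowest for cyp4b1 at 27.1, for the summed CYP4 level at 47.5 and for the summed UGT level at 2.70. F1 mixture 1 was highest for cyp4b1 at 226, for the summed CYP4 level at 291 and for the summed CYP2 level at 1252. F2 mixture 5 was highest for cyp2u1 at 27.1, F2 control 5 for cyp4v2.2 at 30.9 and F1 control 3 for cyp4v2.1 at 4.95. F1 mixture 4 was lowest for ugt1a6 at 4.95.

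The log2 fold change of mixture over control livers differed between F2 and F1, by the contrast of the 2 in limma, for 10 genes. The F2 value minus the F1 value was -0.88 for cyp2a6.2, -1.35 for cyp2c19, -1.89 for cyp2e1.2 and -1.51 for cyp4b1.2. It was -1.43 for cyp4v2.1, -1.21 for cyp4v2.2, -2.36 for sult6b1.2, -0.74 for sult6b1.4 and -1.01 for sult6b1.6, and 2.78 for sult1c4. The calls of cyp2a6.2, cyp2c19, sult6b1.4 and sult6b1.6 ended in several alternative fits.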

How the results depend on the processing

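Across all alternatives run, 1354 values were recomputed for 47 results on single genes. Of these 1229 kept direction and side of the threshold, 121 lost the call, 4 gained one and 0 changed sign. The F1 count of called members, 0, was 7 with limma's arrayWeights (1129 of all genes) and 0 to 1 with single libraries left out. The F2 count of 12 (2630 of all genes) ran from 10 to 18 with single libraries left out. It was 14 with the F2 libraries alone and the library number as a block (2794 of all genes), which shared 10 calls. The block ended the calls of cyp2d6 and ugt3a2 and added cyp3a5, mgst1, sult1c1 (0.0439) and gstt1 (0.0467). F1 mixture and F1 control share only numbers 1 and 4, so F1 was not blocked. The count for the difference of effects, 10, was 17 with arrayWeights (3864 of all genes) and 6 to 13 with libraries left out. The count of F2 mixture against F1 mixture, 10, was 6 without a filter on low values (1349 of all genes), 5 with the 2 groups alone (509) and 6 with arrayWeights (784), where all genes gave 1450 in the reported fit. It was 5 to 10 with libraries left out, lowest without F1 mixture 1 and next without F1 mixture 8 (6). That of F2 control against F1 control, 18 (5722 of all genes), ran from 17 to 19 with single libraries left out. It was 15 with the erythrocyte covariate (4043), 22 with the 2 groups alone (5982) and 22 with arrayWeights (6592). The cause of these changes was not tested. The difference of effects has no fit with 2 groups alone. Leaving out libraries from the family sums was chosen after seeing the data. Genes at few FPKM can rest on few fragments, with medians by the confidence limits of 20.5 for mgst2 and 67.9 for cyp2e1.2. For ugt3a2 the limit is its listing at 0 in 7 libraries.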
